A study of Homo sapiens with 4 samples.

Results

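The miRNAs hsa-miR-146a, hsa-miR-146b-5p and hsa-miR-155 were followed through small RNA libraries of human breast cells and of the exosomes these cells release. They were chosen by name, as the rows whose name equals one of the 3 (star names left out), and all 3 were found among the 1100 mature miRNA names of the files. The prefix for human is left out below. MDA-MB-231 cells come from a breast cancer that lacks hormone receptors and HER2, and MCF-10A cells from breast epithelium that is immortal but not tumour-forming. The 4 groups were exosomes and cells of MDA-MB-231 and exosomes and cells of MCF-10A, with 1 library in each. The last is called the labelled MCF-10A cell library below, because its content went against its label in part. No difference could therefore be checked against replicates, and no p-value is given. Neither line carried a stated genetic change or drug treatment. The medium of MDA-MB-231 held 10% fetal bovine serum, and that of MCF-10A 5% horse serum, insulin, EGF, cholera toxin and hydrocortisone.

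All 3 miRNAs belong to the inflammatory response. Signals from Toll-like receptors and cytokine receptors activate NF-κB, which induces MIR146A and the MIR155 host transcript. miR-146a and miR-146b repress the adaptors IRAK1 and TRAF6 and so damp the pathway that induces them, while miR-155 represses inhibitors of the response such as SHIP1 and SOCS1. miR-155 is abundant in activated lymphocytes and macrophages, and all 3 have been studied in breast cancer cells.

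The mature sequences show why miR-146a and miR-146b-5p are counted as a family and miR-155 is not. They are from RefSeq on GRCh38.p14 and run 5′ to 3′, with the seed (bases 2 to 8, the part that pairs with targets) in capitals.

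miR-146a: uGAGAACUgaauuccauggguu

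miR-146b-5p: uGAGAACUgaauuccauaggcug

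miR-155: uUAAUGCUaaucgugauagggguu

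miR-146a and miR-146b-5p have the same seed and are equal at 20 of the 22 bases compared. The differences were G18A and U21C, with miR-146a first and positions counted from 1 at the 5′ end, and miR-146b-5p is 1 base longer (23 against 22). The first 17 bases are therefore common to both, and a read has to reach base 18 to tell them apart. Of 2370 mature human sequences searched, the miR-146 seed was found in 1 other, hsa-miR-7153-5p, which is not among the names of the files. The seed of miR-155 was found in no other of the 2370. GGAG and CCCU, short motifs known from work on the sorting of miRNAs into exosomes, were searched on the given strand of the mature sequences. GGAG was present in 15.7% of the 2370 and CCCU in 11.9%, and neither occurs in any of the 3.

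The genes lie on 3 chromosomes, so the miRNAs are made from separate transcripts. Mature miR-146a lies at chr5:160485372-160485393 on the plus strand, and its hairpin overlaps an exon of the long non-coding gene MIR3142HG (GENCODE release 29). Mature miR-146b-5p lies at chr10:102436520-102436542 on the plus strand, in no other annotated gene. Mature miR-155 lies at chr21:25573983-25574006 on the plus strand, and its hairpin overlaps an exon of its host gene MIR155HG. Both hairpins of the miR-146 genes are shown because their arms are unequally alike, with the 5′ and 3′ mature arms in capitals.

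MIR146A: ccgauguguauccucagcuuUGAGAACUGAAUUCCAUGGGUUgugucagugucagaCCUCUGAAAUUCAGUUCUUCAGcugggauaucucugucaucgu

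MIR146B: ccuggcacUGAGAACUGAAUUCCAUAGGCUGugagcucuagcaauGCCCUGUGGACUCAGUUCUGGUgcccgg

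The 5′ arms were equal at 20 of 22 bases. The 3′ arms, set base against base without gaps, were equal at 6 of 22. Both hold the run UCAGUUCU at shifted positions, so this count depends on where the annotated ends fall.

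The deposited levels are log2 of 1 plus the reads per 10000000 miRNA reads, a scale worked out from the values. Whole reads recovered from them gave depths of 1532909 reads for exosomes and 7346080 for cells of MDA-MB-231, and 1254644 for exosomes and 10937897 for the labelled cell library of MCF-10A. Large numbers of reads carry the 0.347% rounding of the deposited values. The labelled MCF-10A cell library stood apart: 8 lists of miRNAs of other tissues (27 names, muscle, stroma, blood, liver, endothelium, nerve and placenta) took 47.1% of its reads. They took 2.39% in exosomes and 0.0716% in cells of MDA-MB-231, and 0.0844% in exosomes of MCF-10A. miR-124, of neurons, and the 4 placental names were at 0 in the other libraries and present in it. The breast epithelial list (the miR-200 family, miR-205 and miR-203) took 0.0232% of reads in exosomes and 0.0459% in cells of MDA-MB-231, and 4.41% in exosomes and 1.01% in the labelled cell library of MCF-10A. The comparison between cells of the lines, which rests on this library, is given beside one that does without it, MDA-MB-231 cells against MCF-10A exosomes. The latter differs in line and in fraction at once. The differences between MCF-10A exosomes and this library have no such counterpart.

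miR-146a, the member made from MIR3142HG, spanned the widest range of the 3. Its log2 level was 18.63 in exosomes and 16.87 in cells of MDA-MB-231, and 7.01 in exosomes and 13.26 in the labelled cell library of MCF-10A. In reads this was about 62188, 87989, 16 and 10729 in the same order. It was the 5th most abundant of 508 names in MDA-MB-231 exosomes and the 12th of 566 in MDA-MB-231 cells, but the 226th of 436 in MCF-10A exosomes and the 91st of 794 in the labelled MCF-10A cell library. Both libraries of MDA-MB-231 thus lay above both libraries labelled MCF-10A. Its share of all miRNA reads was 4.06% (Wilson 95% interval 4.03 to 4.09) in MDA-MB-231 exosomes, against 0.00128% (0.000785 to 0.00207) in MCF-10A exosomes. In MDA-MB-231 cells miR-146a took 1.20%, and the lists of other tissues took 0.0716%. The part of other tissues in its level was not tested.

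miR-146b-5p, its near copy on another chromosome, varied least and ran the other way. Its log2 level was 12.09 in exosomes and 12.34 in cells of MDA-MB-231, and 13.33 in exosomes and 14.34 in the labelled cell library of MCF-10A. These levels correspond to about 668, 3808, 1292 and 22682 reads. Both libraries of MDA-MB-231 lay below both libraries labelled MCF-10A, the reverse of miR-146a. It ranked between 50th and 80th in every library.

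miR-155, the member with its own seed, was low in the cancer cells and higher in their exosomes. Its log2 level was 10.78 in exosomes and 2.35 in cells of MDA-MB-231, and 5.83 in exosomes and 11.40 in the labelled cell library of MCF-10A. It rested on about 269 reads, 3 reads, 7 reads and about 2955 reads in that order. The libraries did not divide by line or by fraction: MDA-MB-231 exosomes and the labelled MCF-10A cell library were high, and the cells of MDA-MB-231 and exosomes of MCF-10A were low. At 3 reads the exact Poisson 95% interval ran from 0.842 to 11.9 reads per 10000000, and at 7 reads from 22.4 to 115.

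Within each miRNA the counting intervals of the 4 libraries did not overlap, so the orders above exceed counting error. The spread between cultures is unknown. Without molecular identifiers PCR copies are counted as if independent, so the intervals cover counting error only.

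**Figure D1:**
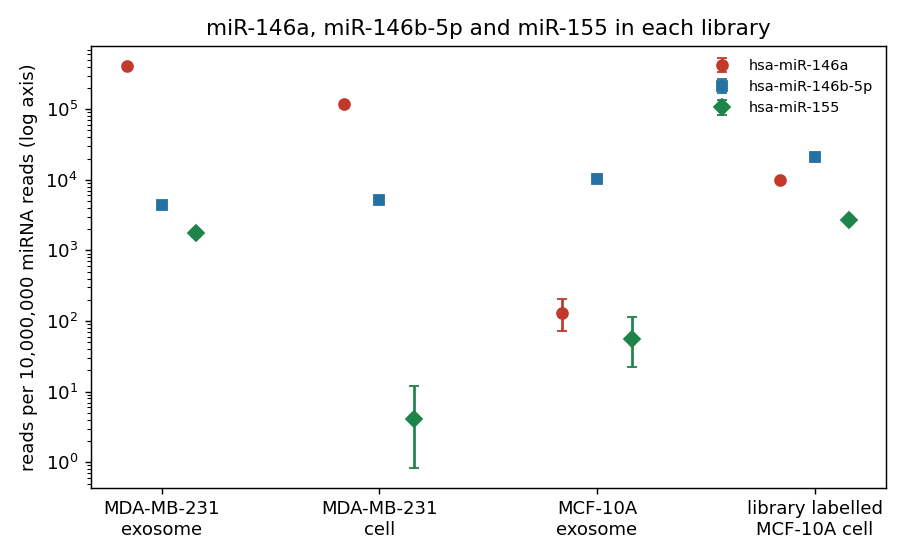
Level of each miRNA in the 4 libraries, in reads per 10000000 miRNA reads on a log axis, with exact Poisson 95% intervals (counting error only, often smaller than the symbol). miR-146a spans 128 to 405684, miR-146b-5p 4359 to 20737 and miR-155 4.10 to 2701.

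The first comparison set exosomes of the cancer line against exosomes of the non-transformed line. miR-146a stood 3181-fold higher in exosomes of MDA-MB-231 (95% counting interval 1959 to 5566), a log2 difference of 11.62 and the 3rd highest of 505 names. miR-155 was 31.5-fold higher (15.1 to 79.0), with a log2 difference of 4.95, the 69th highest. The 4 leukocyte miRNAs described below were higher as well, with log2 differences of 2.99 (miR-150) to 4.55 (miR-142-3p), and their part in the value of miR-155 was not tested. miR-146b-5p was 2.36-fold lower (2.15 to 2.60), a log2 difference of −1.24. At a 4-fold size, 2 of the 3 were higher and 0 lower. Of all 505 names, 29.3% were higher by 4-fold or more and 19% lower by as much, and the median log2 difference was 0.59. Under upper-quartile scaling that median became −0.14, a shift of −0.73, which put miR-146a at 10.89, miR-155 at 4.22 and miR-146b-5p at −1.97.

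**Figure D2:**
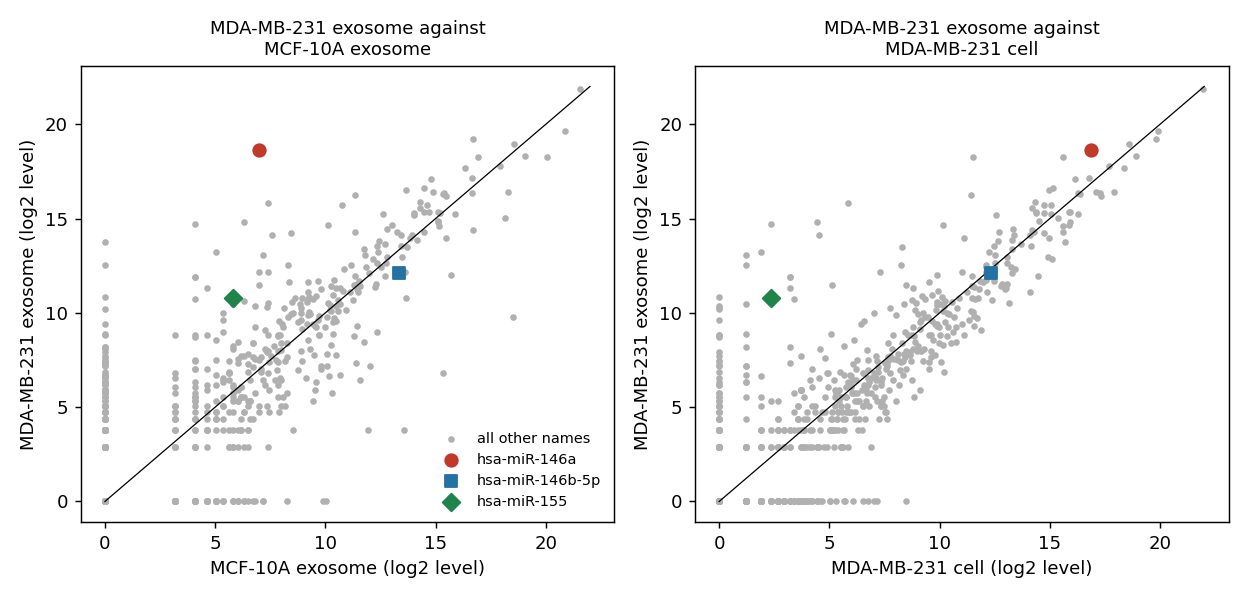
Log2 level of every name in MDA-MB-231 exosomes (vertical) against MCF-10A exosomes (left panel) and MDA-MB-231 cells (right panel), with equality drawn as a line and the 3 miRNAs coloured. miR-146a lies far above the line on the left (18.63 against 7.01) and close to it on the right (18.63 against 16.87), while miR-155 lies far above it on the right (10.78 against 2.35).

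Because the seed is shared, the reads of miR-146a and miR-146b-5p were also summed. The seed GAGAACU took 4.10% of all miRNA reads in exosomes (Wilson 95% interval 4.07 to 4.13) and 1.25% in cells of MDA-MB-231 (1.24 to 1.26), and 0.104% in exosomes (0.0988 to 0.110) and 0.305% in the labelled cell library of MCF-10A (0.302 to 0.309). Between exosomes it stood 39.3-fold higher for MDA-MB-231 (37.2 to 41.6), against the 3181-fold of miR-146a on its own. miR-146a supplied 98.9% of the seed's reads in exosomes and 95.9% in cells of MDA-MB-231, against 1.22% in exosomes and 32.1% in the labelled cell library of MCF-10A. The libraries of the cancer line thus held the seed mostly as miR-146a, and those labelled MCF-10A mostly as miR-146b-5p. With cells of MDA-MB-231 set against exosomes of MCF-10A, the summed seed was 12.0-fold higher in the cells (11.3 to 12.7).

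The ratio of both guides within a library does not depend on the scaling between libraries. There were 93.1 reads of miR-146a per read of miR-146b-5p in MDA-MB-231 exosomes (86.3 to 101) and 23.1 in MDA-MB-231 cells (22.4 to 23.9). The ratio was 0.0124 in MCF-10A exosomes (0.00706 to 0.0202) and 0.473 in the labelled MCF-10A cell library (0.462 to 0.484). It was above 1 in both libraries of MDA-MB-231 and below 1 in both labelled MCF-10A. In the labelled MCF-10A cell library 47.1% of reads lay on the lists of other tissues, and the part of other tissues in its ratio was not tested. The sources used here do not give how reads that end before base 18 or carry a mismatch were assigned. The smaller partner was about 1 read in 100 in MDA-MB-231 exosomes (668 against 62188) and in MCF-10A exosomes (16 against 1292), and misassignment between the pair was not tested.

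**Figure D3:**
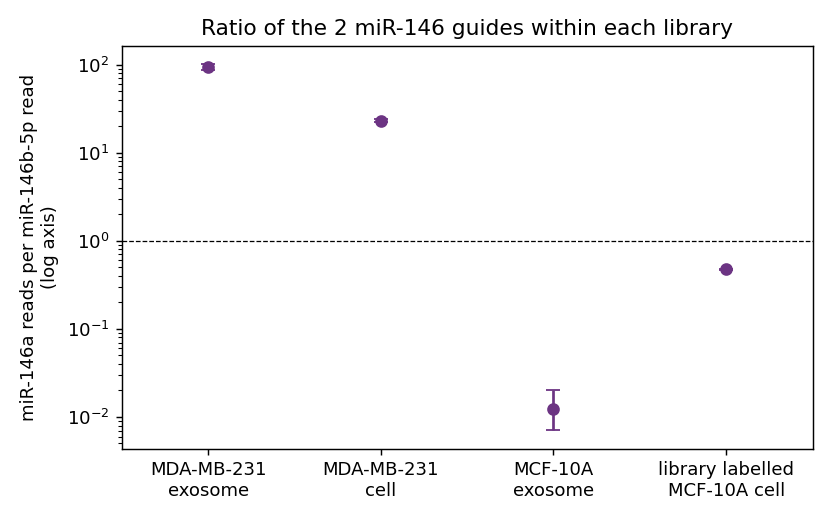
Reads of miR-146a per read of miR-146b-5p in each library, on a log axis with exact conditional binomial 95% intervals; the dashed line marks equal numbers. The ratio is 93.1 and 23.1 in exosomes and cells of MDA-MB-231, and 0.0124 and 0.473 in the exosomes and the cell library labelled MCF-10A.

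The second comparison asked the same of the cells and rests on the labelled MCF-10A cell library. miR-146a stood 12.2-fold higher in the cells of MDA-MB-231 (12.0 to 12.5), a log2 difference of 3.61. miR-146b-5p was 4.0-fold lower (3.87 to 4.14), a log2 difference of −2.00, which is exactly the size asked for. miR-155 was 662-fold lower (226 to 3210), with 3 reads against about 2955, and the 4 leukocyte miRNAs were lower with it (median log2 difference −9.30). Of these, miR-150 and miR-223 had 0 reads in the cells and entered through the labelled library. Among the 3 members 1 was higher and 2 were lower by 4-fold or more. Of all 665 names, 17.4% were at least 4-fold higher and 54.3% at least 4-fold lower (116 and 361 names, or 167 and 306 under upper-quartile scaling). Most names were lower there, with a median log2 difference of −2.83, so a lower call by itself does not set a miRNA apart. miR-146b-5p lay above that median, 305th highest of the 665, and miR-155 below it, 77th lowest. Upper-quartile scaling shifted every fold by 1.42 and ended the call of miR-146b-5p (−0.58), while miR-146a stood at 5.03 and miR-155 at −7.63. With the reads outside the lists of other tissues as the denominator, miR-146a stood at 2.69 and miR-146b-5p at −2.92.

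Against MCF-10A exosomes, which do without that library, MDA-MB-231 cells held 939-fold more miR-146a (578 to 1643), the 2nd highest of 482 names. miR-146b-5p was 1.99-fold lower (1.86 to 2.12), a log2 difference of −0.99. miR-155 was 13.7-fold lower (3.12 to 81.9), on 3 against 7 reads in libraries of unequal depth, and 2 of the 4 leukocyte miRNAs were lower by 4-fold or more, those at 0 in the cells. So 1 of the 3 was higher by that size and 1 lower. At least 4-fold higher were 26.6% of the 482 names, and at least 4-fold lower were 19.3%. The directions of all 3 were the same against either library labelled MCF-10A.

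The third comparison set exosomes of MDA-MB-231 against their parent cells. miR-155 was 430-fold higher in the exosomes (145 to 2097), a log2 difference of 8.43 and the 19th highest of 499 names. This fold rested on about 269 against 3 reads, and a pseudocount of 10 put the log2 difference at 6.97. miR-146a was 3.39-fold higher (3.35 to 3.42), the 120th highest. miR-146b-5p was 1.19-fold lower (1.10 to 1.29). So 1 of the 3 was at least 4-fold higher and 0 lower, where 22.2% of names were at least 4-fold higher and 13.4% lower (111 and 67 names, or 99 and 97 under upper-quartile scaling). miR-146a and miR-146b-5p differ at only 2 bases and their exosome to cell folds were 3.39 and 0.841, with counting intervals that do not overlap.

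Most lists of other cell types, though not the neural one, moved with miR-155 in this comparison. All 4 leukocyte miRNAs were higher in the exosomes by 4-fold or more, with a median log2 difference of 8.32 beside −0.09 over all names. Of all 499 names, 22.2% were higher by that size and 13.4% lower. Their summed level was 31095 reads per 10000000 in exosomes and 1169 in cells of MDA-MB-231, and 1495 in exosomes and 40349 in the labelled cell library of MCF-10A. miR-150 and miR-223, of lymphocytes and of myeloid cells, were at 0 in MDA-MB-231 cells. They passed the minimum through the exosomes alone, which fixes a higher call, and their differences enter the median of 8.32. The order of the libraries for miR-142-5p, miR-150 and miR-223 was that of miR-155. miR-142-3p, the most abundant of the list, differed, with a log2 level of 10.15 in MDA-MB-231 cells beside 10.10 in MCF-10A exosomes, where miR-155 had 2.35 and 5.83. All 3 erythroid names, the liver miRNA miR-122 and both endothelial names were higher as well, and so were 3 of 3 muscle names and 4 of 4 stromal names that passed the minimum. Of these muscle and stromal names only miR-143 reached the minimum in the cells, so the others entered through the exosomes, where they are high. Among the erythroid names, miR-144 (0 reads in the cells) and miR-451 (3 reads) entered in the same way, as did miR-155 (3 reads). miR-133a rested on 2 reads against 0. miR-133b, with 0 reads in both libraries, and miR-214, with 1 read in each, did not pass. Of the neural list 3 names were tested, with 0 higher by 4-fold, 1 lower (miR-137, −2.31) and a median log2 difference of −1.47. The placental names had 0 reads in both libraries. The part of any of these in the level of miR-155 was not tested.

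The ratio of miR-155 to each leukocyte miRNA differed from name to name. There were 0.627 reads of miR-155 per read of miR-142-5p in exosomes (0.536 to 0.732) and 0.120 in cells of MDA-MB-231 (0.0232 to 0.393), and 0.438 in exosomes (0.152 to 1.12) and 0.669 in the labelled cell library of MCF-10A (0.638 to 0.701). The intervals of MDA-MB-231 exosomes, MCF-10A exosomes and the labelled MCF-10A cell library overlap one another. That of MDA-MB-231 cells overlaps only that of MCF-10A exosomes. Against miR-142-3p the ratio was 0.0683 in exosomes (0.0601 to 0.0772) and 0.00360 in cells of MDA-MB-231 (0.000740 to 0.0105), and 0.0507 in exosomes (0.0200 to 0.107) and 0.0928 in the labelled cell library of MCF-10A (0.0893 to 0.0963). The cells of MDA-MB-231 lay below the other libraries there, with no overlap. Against miR-150 it was 1.37 in MDA-MB-231 exosomes (1.14 to 1.66), 0.350 in MCF-10A exosomes (0.125 to 0.862) and 0.785 in the labelled MCF-10A cell library (0.748 to 0.824), and the exosomes of the lines did not overlap. Against miR-223 it was 1.34 in MDA-MB-231 exosomes (1.11 to 1.61), 0.500 in MCF-10A exosomes (0.171 to 1.32) and 0.722 in the labelled MCF-10A cell library (0.688 to 0.757). MDA-MB-231 exosomes and the labelled library did not overlap for miR-223, miR-150 or miR-142-3p. The exosomes had the higher ratio to miR-223 and miR-150 and the lower ratio to miR-142-3p. Neither miR-150 nor miR-223 gives a ratio in MDA-MB-231 cells, where both are at 0 and miR-155 is lowest. miR-146a did not follow the list: it had about 87989 reads in MDA-MB-231 cells, where the 4 leukocyte names together had 859.

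**Figure D4:**
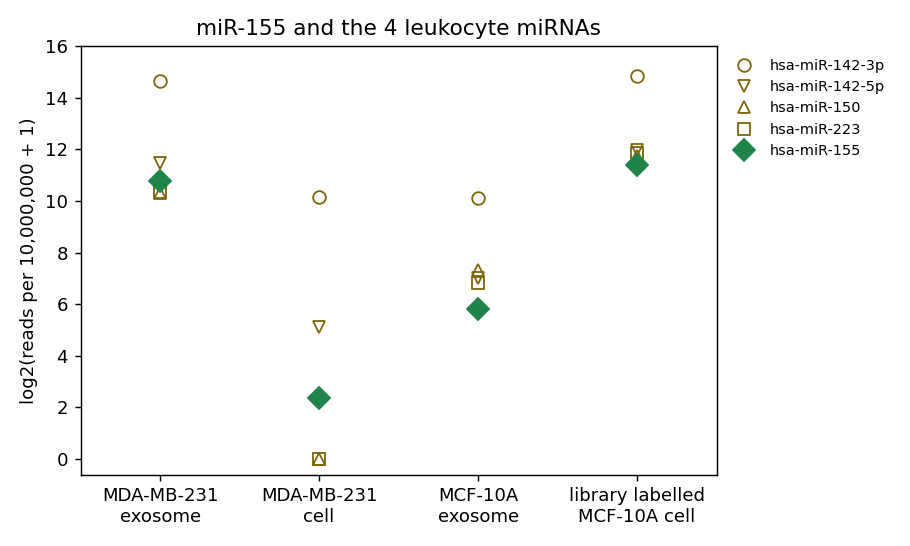
Log2 level of miR-155 (filled diamonds) and of the 4 leukocyte miRNAs (open symbols) in each library; levels are log2 of reads per 10000000 plus 1, and 0 is 0 reads. All 5 are higher in MDA-MB-231 exosomes and the labelled MCF-10A cell library than in cells of MDA-MB-231 and exosomes of MCF-10A.

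The fourth comparison, MCF-10A exosomes against the labelled MCF-10A cell library, again contains the other-tissue content of that library. miR-146a was 76.9-fold lower in the exosomes (47.3 to 135) and miR-155 48.4-fold lower (23.5 to 121), with all 4 leukocyte miRNAs lower too (median log2 difference −4.85). miR-146b-5p was 2.01-fold lower (1.90 to 2.13) as deposited, and higher under upper-quartile scaling (log2 difference 0.63 against −1.01). Lower by at least 4-fold were 2 of the 3 and higher 0, where 57.2% of the 661 names were lower and 15.4% higher (378 and 102 names, or 311 and 169 under upper-quartile scaling). Over all names the median log2 difference was −3.27, so miR-146a (−6.25) and miR-155 (−5.57) lay below it and miR-146b-5p above it.

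The exosome to cell difference was set side by side in both lines. For miR-155 it was 8.43 on the log2 scale in MDA-MB-231 and −5.57 in MCF-10A, 14.00 apart. For miR-146a it was 1.76 in MDA-MB-231 and −6.25 in MCF-10A, 8.01 apart. For miR-146b-5p it was −0.25 in MDA-MB-231 and −1.01 in MCF-10A, 0.76 apart. With 1 library in each group these gaps could not be tested, and the MCF-10A side uses the labelled MCF-10A cell library.

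**Figure D5:**
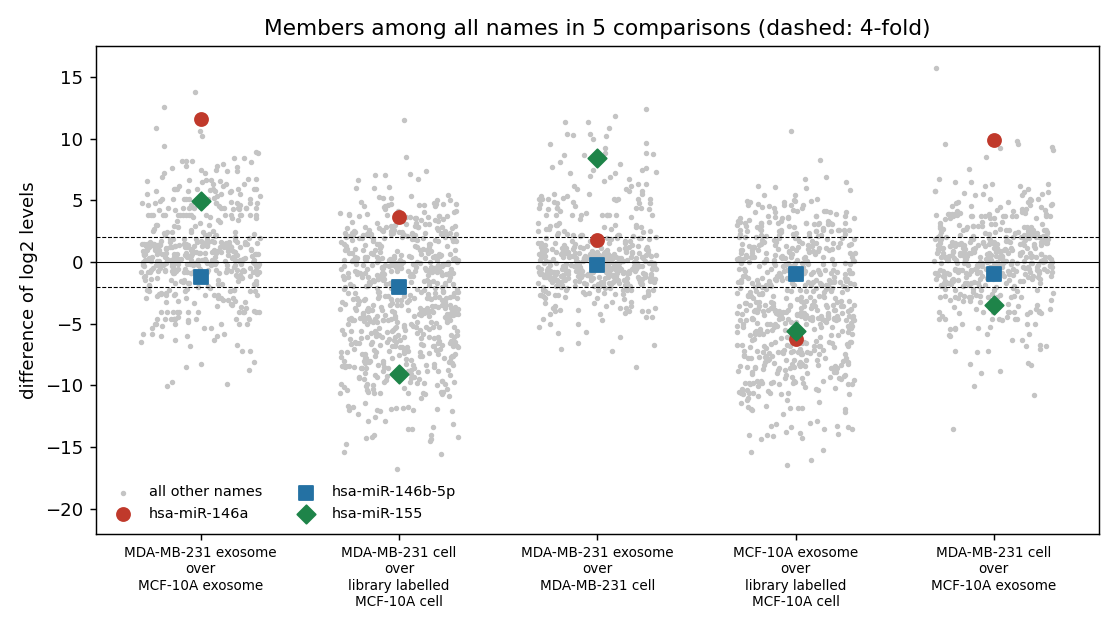
Difference of log2 levels in the 5 comparisons for the 3 miRNAs (coloured) and for all other names that reach 10 reads per 10000000 in either library (grey, spread sideways at random); dashed lines mark 4-fold. miR-146a reaches 11.62 between exosomes and miR-155 reaches 8.43 between MDA-MB-231 exosomes and cells, while miR-146b-5p stays between −2.00 and −0.25; against the labelled MCF-10A cell library its value in MCF-10A exosomes turns positive under upper-quartile scaling.

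The opposite arms of the 3 hairpins, which are not members, were almost unread. miR-146a*, miR-146b-3p and miR-155* had 0 reads in exosomes and cells of MDA-MB-231 and in exosomes of MCF-10A. In the labelled MCF-10A cell library they had 3, 11 and 1 reads. miR-146a therefore had at least 20729-fold more reads than its opposite arm in MDA-MB-231 exosomes and at least 29330-fold more in MDA-MB-231 cells, with the opposite arm set at 3 reads. Among guides with 1000 or more reads and a star name in the files, the star name was at 0 for 9.09% (4 of 44) in MDA-MB-231 exosomes and 8.47% (5 of 59) in MDA-MB-231 cells.

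The names closest to each miRNA in pattern were sought over the 4 libraries, by the distance between log2 levels centred on their own mean, among the 566 names that reach 50 reads per 10000000 in any library. The closest to miR-146a were miR-1270 (distance 1.80), miR-105 (2.34) and miR-1287 (3.06), all at 0 in MCF-10A exosomes. At 0 reads the pseudocount sets the level and so part of the distance. The closest to miR-146b-5p were miR-576-5p (0.35), miR-194* (0.47) and miR-574-3p (0.64). In exosomes of MDA-MB-231 and MCF-10A, miR-576-5p rested on 6 and 12 reads and miR-194* on 3 and 5. The closest to miR-155 were miR-376a* (0.43), miR-411 (0.81) and miR-381 (0.83), which are encoded in the imprinted cluster at 14q32. For example, miR-411 had 217 reads in exosomes and 1 in cells of MDA-MB-231, and 7 in exosomes and 2075 in the labelled cell library of MCF-10A. In cells of MDA-MB-231 and exosomes of MCF-10A, miR-376a* rested on 0 and 2 reads and miR-381 on 0 and 3. The pseudocount therefore sets part of their distances too. The members were far from one another, with distances of 10.05 between miR-146a and miR-146b-5p, 10.77 between miR-146a and miR-155 and 6.95 between miR-146b-5p and miR-155. Distances were also taken over the 3 libraries other than the one labelled MCF-10A cell. The candidates were the same 566 names, so that library still took part in choosing them. The name closest to miR-146b-5p was then let-7a (0.03), and those closest to miR-155 were miR-376a*, miR-409-3p and miR-411. In cells of MDA-MB-231 and exosomes of MCF-10A, miR-409-3p rested on 0 and 1 reads.

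Other miRNAs reported to be induced by NF-κB, Toll-like receptors or cytokines did not share 1 direction. Of 18 listed names, 17 passed the minimum between the exosomes of the lines, of which 6 were higher by 4-fold or more in MDA-MB-231, 2 lower and 9 between. Over all names 29.3% were higher and 19% lower by that size, so both counts lie near the background. The median log2 difference of the list was 1.64 beside 0.59 over all names. Higher were miR-10a, encoded in a Hox cluster, by 31.6-fold (27.6 to 36.4) and the endothelial miR-126 by 29.2-fold (26.2 to 32.7). The myeloid miR-223 was 11.8-fold (6.84 to 21.9), let-7i 7.72-fold (6.89 to 8.67), miR-181b 7.11-fold (6.75 to 7.49) and the neural miR-9 5.44-fold higher (3.08 to 10.3). Lower were miR-203, a miRNA of stratified epithelium, by 16.5-fold (11.0 to 25.8) and miR-187, with 0 against 38 reads. Under upper-quartile scaling, chosen for this list after the data were seen, 5 were higher and 2 lower, miR-9 no longer reaching 4-fold. miR-223 and miR-126 also stand on the leukocyte and endothelial lists. Between MDA-MB-231 exosomes and cells 3 of the 16 listed names tested were higher and 2 lower, where 22.2% of all names were higher and 13.4% lower. With cells of MDA-MB-231 set against exosomes of MCF-10A 5 of 17 were higher and 3 lower, where 26.6% of all names were higher and 19.3% lower.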

How the data were processed

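Per the labels' protocols, RNA of cultured cells and of exosomes was extracted with TRIzol, and small RNAs of 17 to 52 nt with a 5′ monophosphate were ligated to adapters and read on an Illumina Genome Analyzer IIx. The submitters' processing notes name Novoalign, edgeR and hg18 without their versions or roles. Not given in the sources used here are the exosome purification, how reads were assigned to names and the miRBase release. The authors deposited log2 values for 1100 names per library. The powers of 2 less 1 sum to 9992361 to 10004141, so they were read as log2 of reads per 10000000 plus 1.

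The worth of 1 read was found as the step at which the low values are whole (100% of those whose rounding interval is under 0.5 reads wide): 6.52, 1.36, 7.97 and 0.914 per 10000000 in exosomes and cells of MDA-MB-231 and in exosomes and the labelled cell library of MCF-10A. A count of 0 allows 3 reads, or 19.6, 4.08, 23.9 and 2.74 per 10000000. The log2 difference is that of the deposited values (pseudocount 1), and folds with exact conditional binomial 95% intervals are of recovered reads over depth. A name entered a comparison if it reached 10 reads per 10000000 in either library, and was called at a log2 difference of 2. Steps were tested on simulated data. The miRNAs, lists and rules were chosen with earlier results of these data known. Named miRNAs are the members, their opposite arms, names sharing a seed, the 3 closest in pattern, the leukocyte list and the inflammatory names past 4-fold. Named after their values were seen were let-7a, miR-409-3p, miR-124, miR-137, miR-122, miR-143, miR-144, miR-451, miR-133a, miR-133b and miR-214. Alternatives were other scalings, pseudocounts, minimums and summed arms. Python 3.11.15, NumPy 2.4.6, pandas 2.3.3, SciPy 1.17.1 and Matplotlib 3.10.9 were used.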

Additional observations from a re-analysis of the deposited data

Results flagged for a closer look

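The exosome to cell difference had opposite signs in the lines for miR-146a (1.76 in MDA-MB-231 and −6.25 in MCF-10A, 8.01 apart on the log2 scale) and for miR-155 (8.43 and −5.57, 14.00 apart). For miR-155 the difference between the lines was likewise opposite in exosomes (4.95) and cells (−9.05), which is the same gap of 14.00. These differences were not tested, since each group held 1 library, and both use the labelled MCF-10A cell library, 47.1% of whose reads lay on lists of other tissues.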

How the results depend on the processing

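Of 90 recomputed log2 differences of the 3 miRNAs, 66 stayed within the counting interval of the reported value, 23 moved beyond it and 1 changed sign. Recovered reads without a pseudocount and summed arms moved none of the 15 differences. Under upper-quartile scaling, miR-146b-5p in MCF-10A exosomes over the labelled MCF-10A cell library turned to 0.63, and its summed seed with miR-146a to 0.09 (−1.55 as deposited). That scaling gave miR-146a 10.89 between exosomes, 5.03 between cells, 1.32 in MDA-MB-231 exosomes over cells and −4.61 in MCF-10A exosomes over the cell library. It gave miR-146b-5p −1.97, −0.58 and −0.69 in the first 3 of these and −1.43 in MDA-MB-231 cells over MCF-10A exosomes. It gave miR-155 −7.63 between cells and −3.93 in MCF-10A exosomes over the cell library. Median-of-ratios scaling gave miR-146a 3.97 between cells and 1.84 in MDA-MB-231 exosomes over cells, and miR-146b-5p −1.48 between exosomes, −1.64 between cells, −0.33 in MCF-10A exosomes over the cell library and −1.31 in MDA-MB-231 cells over MCF-10A exosomes. With reads outside the other-tissue lists as denominator, miR-146a stood at 2.69, 1.79 and −7.17 (cells, MDA-MB-231 fractions, MCF-10A fractions), and miR-146b-5p at −2.92 between cells and −1.93 between the MCF-10A fractions. A pseudocount of 10 gave miR-155 −7.59 between cells and 6.97 in MDA-MB-231 exosomes over cells, as it adds to the 3 reads there. Ratios of miR-146a to miR-146b-5p stayed within their intervals under both alternatives run. Of the counts over all names, those lower by 4-fold or more in exosomes over cells of MDA-MB-231 were 38 with a minimum of 50 and 103 with none (67 reported). Names higher in MDA-MB-231 cells over MCF-10A exosomes were 79 with a minimum of 50 (128 reported), and names higher in MCF-10A exosomes over the cell library were 169 under upper-quartile scaling (102 reported). The summed seed, added after the data were seen, kept its direction in the other 4 comparisons under the 3 scalings run. No paired analysis was possible because each group held 1 library. Depth limits miR-155 in MDA-MB-231 cells (3 reads) and MCF-10A exosomes (7 reads) and miR-146a in MCF-10A exosomes (16 reads).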
